A study of Rattus norvegicus with 6 samples.

Results

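Testis RNA from diabetic and normal rats was examined for 10 genes that move, store and release iron or set the cell's exposure to ferroptosis. They were picked by symbol from an expression table of 35291 gene rows, where they held 11 rows because Slc40a1 was listed on 2 of them. The members were Tf, Tfrc, Slc11a2, Fth1, Ftl1 and Slc40a1 for iron, Hmox1 and Hmox2 for heme breakdown, and Slc7a11 and Acsl4 for ferroptosis. All animals were Sprague-Dawley rats, an outbred stock. The titles of the 6 libraries give a replicate number, and each replicate was taken here as the testis of 1 rat. The 3 diabetic rats had received a high-fat diet and 1 injection of streptozotocin at 35 mg/kg, a toxin of the insulin-producing beta cells, and the 3 normal rats had received citrate buffer. Testes were taken 8 weeks after the injection. The ages of the rats and the diet of the normal rats are not given in the sources used here. The comparison asks which transcripts differ in the testis of a diabetic animal.

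Iron circulates on transferrin, enters cells with the transferrin receptor, and leaves the endosome through the divalent metal transporter encoded by Slc11a2. In the testis, Sertoli cells make their own transferrin to carry iron past the blood-testis barrier to the germ cells. Inside the cell, iron is held in ferritin, a shell of heavy and light chains, leaves through ferroportin, and is also set free when heme oxygenase opens the heme ring. Ferroptosis is a form of cell death driven by iron-dependent peroxidation of membrane lipids, held back by glutathione made from imported cystine and by the peroxidase Gpx4.

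Values were FPKM, fragment counts divided by transcript length and library size, which are scaled for length and so can be set beside each other between genes. The relative sequencing depth was read from the commonest ratio between each pair of libraries among genes with low values. It was 0.966 to 1.09 in the diabetic and 0.893 to 1.02 in the normal libraries. Spermatid markers summed to between 14050 and 16370 FPKM over the 6 libraries, so the labelled tissue carried its germ cell transcripts. The 7 Leydig cell markers in the table summed to 36.0 to 64.8 FPKM in the diabetic and 109.4 to 144.5 FPKM in the normal rats. All 7 were lower in the diabetic rats at an unadjusted p below 0.05 in limma, beside 4.99% of all genes tested. In whole testis, fewer cells of a type and less RNA per cell cannot be told apart.

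Of the 10 genes, 1 stood apart between the groups. Slc7a11, the cystine importer, was lower in all 3 diabetic rats than in any normal rat, with 1.56 ± 0.816 FPKM against 4.03 ± 0.361 FPKM (SD, n = 3 rats each). The other 9 genes, with Slc40a1 taken by its first row, differed by log2 fold changes between -0.27 and 0.09. A gene was called where its log2 fold change, diabetic minus normal on log2(FPKM + 0.1), was at least 1 in size with an unadjusted p below 0.05 in limma. Slc7a11 passed this criterion, as did 1.24% of the 20338 genes tested, 0.846% with the lower level in diabetic rats and 0.398% with the higher. No member had a Benjamini-Hochberg adjusted p below 0.05 in limma, a limit that 0.0344% of the genes passed, and the lowest among the members was 0.353. At an unadjusted p below 0.05, 1 member passed, beside 7.46% of all genes. With 3 rats a group, the exact two-sided permutation test could not give a p below 0.1.

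The 10 genes covered a wide range of levels. In the normal rats Fth1 stood highest at 404.2 ± 40.3 FPKM (SD, n = 3), followed by Hmox2 at 196.7 ± 6.21 and Tf at 51.6 ± 3.16. Tfrc and Hmox1 came next and overlapped each other, then Acsl4 and Slc11a2, which overlapped as well. Ftl1, Slc40a1 and Slc7a11 were the lowest and could not be ordered beyond their spread. In the diabetic rats Slc7a11 was the lowest of the 10, with no overlap with Slc40a1 above it. Against all genes tested, Fth1 stood at or above 99.5% of them by mean level, Hmox2 at or above 98.4%, and Slc7a11 at or above 37.4%.

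**Figure D1:**
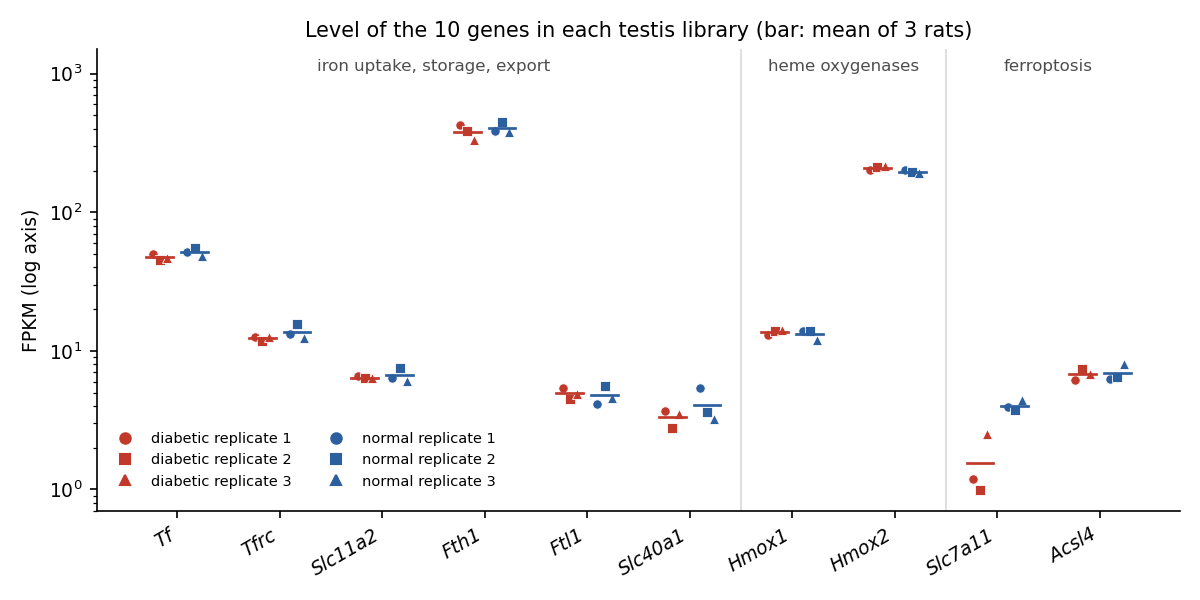
FPKM on a log axis for each of the 10 genes, with 1 point per rat, diabetic rats in red and normal rats in blue, and a bar at the mean of 3 rats. The groups overlap for 9 genes, and for Slc7a11 the diabetic rats at 0.994 to 2.49 FPKM sit below the normal rats at 3.73 to 4.43 FPKM.

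The genes of iron uptake did not differ beyond the spread between rats. Tf, the plasma and Sertoli cell iron carrier, was at 49.9, 45.0 and 47.1 FPKM in diabetic rats 1 to 3 and at 51.3, 54.8 and 48.5 FPKM in normal rats 1 to 3. Diabetic rat 1 was above normal rat 3, so the groups overlapped. Tf had a log2 fold change of -0.12 (SE 0.07, adjusted p = 0.786, limma).

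Tfrc, the receptor that brings iron-loaded transferrin into the cell, was at 12.6, 11.8 and 12.6 FPKM in the diabetic and 13.1, 15.5 and 12.3 FPKM in the normal rats. Normal rat 2 was the highest, and normal rat 3 lay inside the diabetic range. Tfrc had a log2 fold change of -0.14 (SE 0.10, adjusted p = 0.843, limma). The ratio of Tf to Tfrc was 3.74 to 3.95 in the diabetic and 3.54 to 3.94 in the normal rats, which also overlapped.

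Slc11a2, which moves iron from the endosome into the cytosol, was at 6.58, 6.32 and 6.33 FPKM in the diabetic and 6.37, 7.46 and 6.10 FPKM in the normal rats. The diabetic values lay close together inside the normal range. Its log2 fold change was -0.04, with a 95% interval of -0.29 to 0.20 and an adjusted p of 0.961 in limma.

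The ferritin genes did not differ beyond the spread between rats either, and their heavy and light chains were listed at very different levels. Fth1, the heavy chain that oxidizes iron for storage, was at 424.9, 388.0 and 330.7 FPKM in the diabetic and 382.7, 450.6 and 379.2 FPKM in the normal rats. The lowest value was that of diabetic rat 3 and the highest that of normal rat 2, with the rest interleaved. Fth1 had a log2 fold change of -0.09 (SE 0.11, adjusted p = 0.920, limma).

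Ftl1, the light chain that helps form the iron core, was at 5.42, 4.49 and 4.87 FPKM in the diabetic and 4.15, 5.61 and 4.60 FPKM in the normal rats. Its groups overlapped fully, with a log2 fold change of 0.05 (SE 0.14, adjusted p = 0.970, limma). The row of that symbol held little of the light chain signal. A row described as ferritin light chain 1-like, LOC100360087, was at 75.5, 76.7 and 70.3 FPKM in the diabetic and 84.1, 84.5 and 63.8 FPKM in the normal rats.

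The rat genome holds many near-identical ferritin copies, so how reads were shared among them is uncertain. Rows with a ferritin description were collected after the values had been seen, giving 9 light chain and 7 heavy chain rows. LOC100360087 made up 79.1% to 82.6% of the summed light chain rows and Ftl1 4.07% to 5.71%. Fth1 held 94.7% to 96.5% of the summed heavy chain rows.

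Summed over its rows, the light chain came to 92.4 ± 3.96 FPKM against 95.8 ± 13.2 FPKM in normal rats (SD, n = 3 rats each), which is a log2 difference of -0.04 (adjusted p = 0.963, limma). The sum turned the sign of the Ftl1 difference, and neither value passed a test. The heavy chain sum was 399.6 ± 47.8 against 421.0 ± 42.5 FPKM (SD, n = 3 rats each), and its log2 difference -0.08 (adjusted p = 0.926, limma). The ratio of Fth1 to Ftl1 was 67.8 to 92.3 over the 6 rats, and the ratio of Fth1 to the summed light chain was 3.76 to 4.70.

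**Figure D2:**
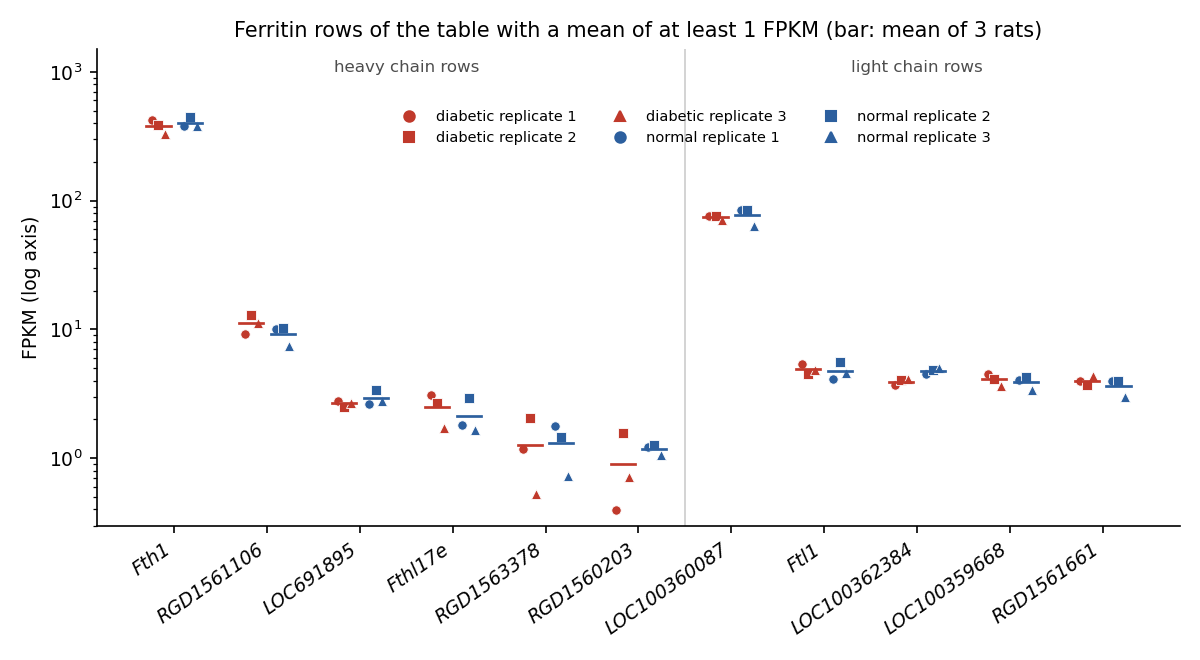
FPKM on a log axis for the heavy and light chain ferritin rows with a mean of at least 1 FPKM, with 1 point per rat and a bar at the mean of 3 rats. Fth1 and LOC100360087 stand far above the other rows of their chain in both groups, and Ftl1 lies among the low light chain rows.

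Slc40a1 (ENSRNOG00000003872) encodes ferroportin, the only known exporter of iron from cells, and was the most variable of the iron genes. Its first row was at 3.68, 2.78 and 3.48 FPKM in the diabetic and 5.42, 3.63 and 3.24 FPKM in the normal rats. Normal rat 1 stood above the others, and the remaining 5 rats overlapped. The log2 fold change was -0.27 (SE 0.21, adjusted p = 0.851, limma), and -0.06 without normal rat 1. A second row of the same symbol (ENSRNOG00000049995) was listed at 5.87 FPKM in normal rat 1 and at 0 in the other 5 libraries, and no fold change is given for it. With both rows summed, the log2 fold change of Slc40a1 was -0.62 (adjusted p = 0.829, limma), which rests on that 1 library.

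Neither heme oxygenase passed a test, and their intervals were among the narrowest of the members. Hmox1, the isoform induced by heme and oxidative stress, was at 13.0, 14.0 and 14.1 FPKM in the diabetic and 13.8, 14.0 and 12.0 FPKM in the normal rats. These ranges overlapped, and the log2 fold change was 0.05 (95% interval -0.16 to 0.25, adjusted p = 0.946, limma). Hmox2, the constitutive isoform that is abundant in testis and brain, was at 200.2, 212.7 and 214.2 FPKM in the diabetic and 203.3, 195.7 and 191.0 FPKM in the normal rats. The groups overlapped only in that diabetic rat 1 was below normal rat 1. For Hmox2 the log2 fold change was 0.09 (95% interval -0.04 to 0.22, adjusted p = 0.805, limma).

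Within each rat Hmox2 was by far the more abundant isoform. The ratio of Hmox2 to Hmox1 in FPKM was 15.2 to 15.4 in the diabetic and 14.0 to 16.0 in the normal rats, so the diabetic ratios lay inside the normal range.

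Slc7a11 (ENSRNOG00000010210) encodes the transport subunit of the cystine-glutamate antiporter, which imports cystine for glutathione synthesis. Its level was 1.18, 0.994 and 2.49 FPKM in diabetic rats 1 to 3 and at 3.92, 3.73 and 4.43 FPKM in normal rats 1 to 3. Diabetic rat 3 was higher than the other diabetic rats, and the groups did not overlap. Groups lay apart with the diabetic rats lower in 8.42% of all genes tested.

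The log2 fold change of Slc7a11 was -1.42 with a standard error of 0.31 and a 95% interval of -2.16 to -0.68. Its unadjusted p was 0.00255 and its adjusted p 0.353 in limma. The exact permutation p was 0.1, the smallest that 3 against 3 can give. In FPKM the normal mean was 2.58 times the diabetic mean. The difference was largest without diabetic rat 3, at -1.80 with an adjusted p of 0.0949, and smallest over the left-out rats at -1.17, without diabetic rat 2.

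Promoter windows of 250 bases before the transcription start were read for the 7 members that matched by symbol in RefSeq's table for the rat build GRCr8, which are all but Fth1, Ftl1 and Hmox1. They gave 9 windows, since Slc11a2 and Hmox2 had 2 each. Of the 2 windows below, that of Slc7a11 is shown because this member passed the criterion. The other is a window of Hmox2, the only member of these 7 with a match to the core of the antioxidant response element. That motif is known from stress-induced genes, and Fth1, Ftl1 and Hmox1 could not be searched for it. Slc7a11 lies on the minus strand, chr2:136668265-136668514, and the Hmox2 window on the minus strand, chr10:11337613-11337862. Capitals mark matches to the motifs searched.
Slc7a11: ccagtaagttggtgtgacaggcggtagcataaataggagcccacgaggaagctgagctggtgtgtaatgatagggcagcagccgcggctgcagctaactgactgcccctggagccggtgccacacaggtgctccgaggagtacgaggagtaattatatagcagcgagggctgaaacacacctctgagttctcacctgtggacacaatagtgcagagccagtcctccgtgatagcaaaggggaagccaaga
Hmox2: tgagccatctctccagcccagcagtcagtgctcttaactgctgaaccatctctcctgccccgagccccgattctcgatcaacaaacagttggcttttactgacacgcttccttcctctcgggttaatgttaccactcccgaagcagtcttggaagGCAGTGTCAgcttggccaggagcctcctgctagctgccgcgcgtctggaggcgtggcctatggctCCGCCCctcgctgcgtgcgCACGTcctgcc

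Motifs were searched on both strands. TGACNNNGC, the antioxidant response element core, was in 10.1% of all 33469 RefSeq windows of this length and, among the members, in the Hmox2 window above, 95 bases before the start on the opposite strand. ACGTG, the hypoxia response element core, was in 16.6% of windows and in those of Hmox2 and Tfrc. GGGCGG, the GC box, was in 30.5% of windows and in 1 window each of Acsl4, Hmox2, Slc11a2 and Slc40a1. TGATGNAA, an amino acid response element, was in 3.40% of windows and in no member window. The Slc7a11 window held no match to these motifs, nor did the other windows of Hmox2 and Slc11a2. Such matches are descriptions of the sequence, and these data carry no measure of factor binding.

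Slc3a2, which encodes the heavy chain that carries the Slc7a11 protein and several other amino acid transporters to the membrane, was looked at after its values were seen. Its level was 42.5, 38.8 and 41.4 FPKM in the diabetic and 53.7, 55.6 and 46.7 FPKM in the normal rats. Every diabetic rat was below every normal rat. The log2 fold change of -0.34 (SE 0.08, adjusted p = 0.410, limma) fell short of the criterion. The ratio of Slc3a2 to Slc7a11 was 16.6 to 39.0 in the diabetic and 10.5 to 14.9 in the normal rats.

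Acsl4, which loads polyunsaturated fatty acids into membrane lipids and so supplies the substrate of ferroptotic peroxidation, was at 6.16, 7.39 and 6.84 FPKM in the diabetic and 6.26, 6.50 and 8.06 FPKM in the normal rats. The values of the 2 groups were interleaved. Acsl4 had a log2 fold change of -0.02 (SE 0.13, adjusted p = 0.984, limma).

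**Figure D3:**
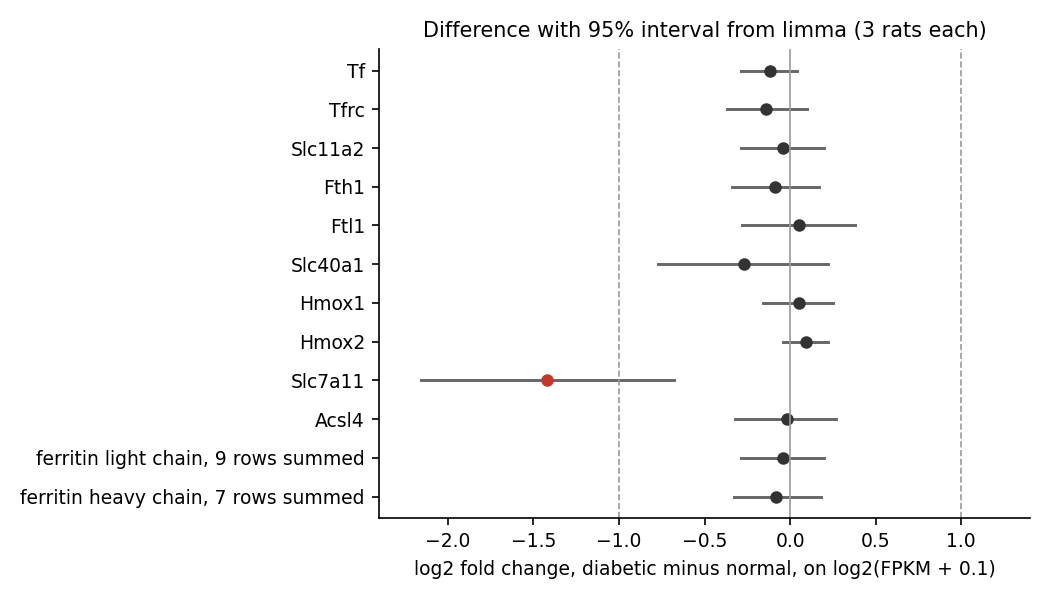
Log2 fold change of each gene, diabetic minus normal on log2(FPKM + 0.1), with its 95% interval from limma, and below them the 2 ferritin sums. Dashed lines mark the fold limit of the criterion, and Slc7a11 in red, at -1.42, is the only point beyond it.

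The 95% intervals of the other 9 genes were read with Slc40a1 on its first row. None of them reached a log2 fold change of 1 in size. The widest was that of Slc40a1, from -0.77 to 0.22, and the narrowest that of Hmox2. The interval of the second Slc40a1 row, above 0 in 1 library, did extend past that size. Over all 10 genes the median log2 fold change was -0.07, beside -0.02 over all genes tested.

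Leydig cell markers were lower in the same rats as Slc7a11. Cyp17a1, a steroid hydroxylase of androgen synthesis, was lower by a log2 fold change of -1.60 (adjusted p = 0.0415, limma). Of the other markers, Cyp11a1 at -1.16, Hsd3b2 at -1.69, Star at -1.24, Insl3 at -1.62 and Hsd17b3 at -1.26 passed the criterion but not the adjusted limit, and Lhcgr lay just short of the fold limit (adjusted p = 0.0559, limma). Diabetic rat 3, highest of the diabetic rats for Slc7a11, was also the highest of them for Insl3, Star, Cyp11a1, Hsd17b3 and, by a small margin, Cyp17a1. It was not for Hsd3b2, at 7.47 FPKM against 8.68 FPKM in diabetic rat 2. For Lhcgr it was the lowest of 3 values between 2.29 and 2.32 FPKM. Of the wider pathway genes, it was also the highest diabetic rat for Hp, Hpx, Sat1, Cp, Blvra and Steap2. It was not for Slc3a2 or Slc39a8. Among the normal rats, rat 3 was the highest for Slc7a11 and Hsd17b3 but the lowest for Star and Cyp11a1. It lay between the other normal rats for Cyp17a1, Hsd3b2, Insl3 and Lhcgr. Whether Slc7a11 followed these markers from rat to rat was not tested.

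Other cell types differed less. Of 9 macrophage markers tested, 8 were lower and 1 higher by sign, and none passed the criterion. At an unadjusted p below 0.05, 3 were lower (33.3%, beside 4.99% of all genes tested), each with groups apart. They were Cd68 (log2 fold change -0.98, adjusted p = 0.629, limma), Csf1r (-0.80, adjusted p = 0.336) and C1qa (-0.82, adjusted p = 0.438). The list summed to 133.8 to 141.8 FPKM in the diabetic and 110.5 to 153.9 FPKM in the normal rats. Aif1 held most of that sum, and without it the list came to 28.9 to 35.2 against 36.5 to 40.1 FPKM, with no overlap. None of the tested germ cell, peritubular or endothelial markers passed the criterion in limma. At an unadjusted p below 0.05, Kit was lower (log2 fold change -0.30, adjusted p = 0.635, limma), and Uchl1 at 0.34 (adjusted p = 0.485) and Flt1 at 0.83 (adjusted p = 0.559) were higher, each with groups apart. Of all genes tested, 4.99% were lower and 2.47% higher at that limit. Groups lay apart with the diabetic rats lower in 8.42% and higher in 4.56%. The spermatogonia list, which holds Kit and Uchl1, summed to 57.9 to 69.4 FPKM in the diabetic rats. In the normal rats it summed to 54.0 to 57.8 FPKM, without overlap. Uchl1 made up most of that sum, at 43.5 to 53.0 FPKM in the diabetic and 35.6 to 40.9 FPKM in the normal rats. Of the 6 spermatogonia markers tested, 4 were lower and 2 higher. None of 11 Sertoli cell markers passed an unadjusted p below 0.05 in limma, and they summed to 322.6 to 338.0 FPKM against 272.8 to 341.2 FPKM. The blood markers summed to 25.8 to 64.7 FPKM in the diabetic and 32.5 to 58.8 FPKM in the normal rats, with Hbb listed at 0 in 5 libraries and Slc4a1 at 0.0395 FPKM at most. The part of these cells in the values of Slc7a11 and of the genes described next was not tested.

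**Figure D4:**
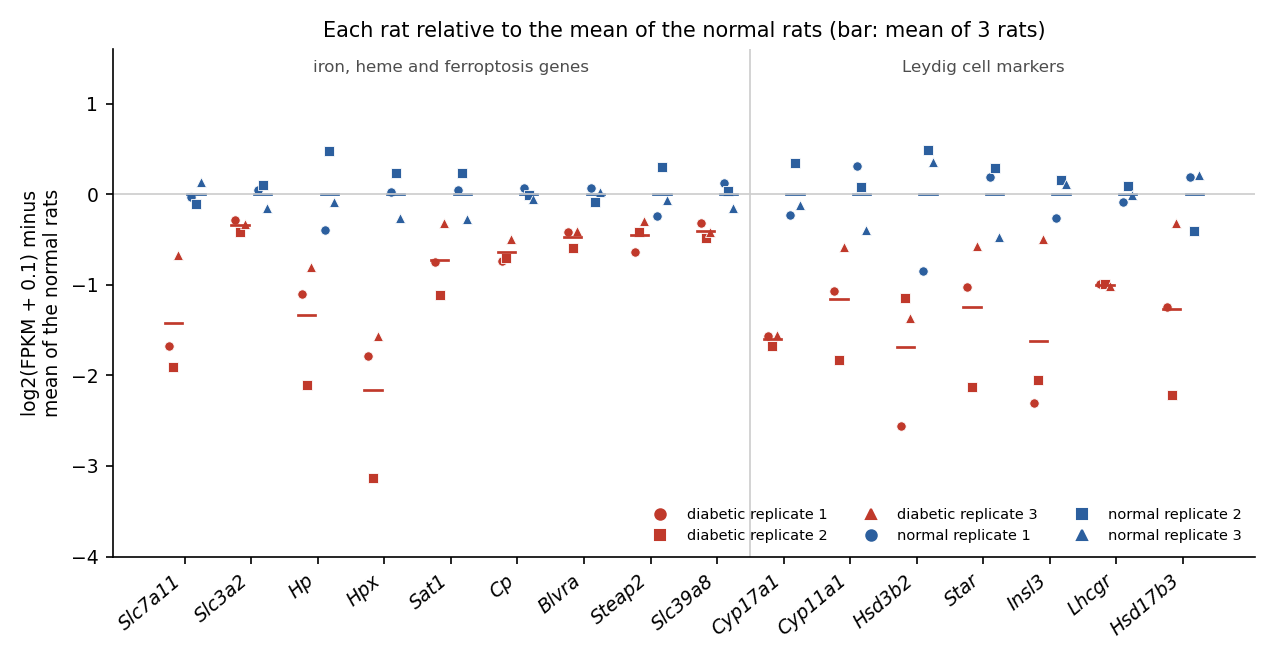
Each rat's log2(FPKM + 0.1) minus the mean of the normal rats, for Slc7a11, Slc3a2 and named genes of the wider pathways on the left and the 7 Leydig cell markers on the right, with bars at the mean of 3 rats. Diabetic rats in red lie below the normal mean for every gene drawn. Of the named wider pathway genes, only those lower in the diabetic rats are drawn, so this holds by choice for them. Fdft1 and Ireb2, which were higher, are left out. Of the diabetic rats, rat 3 is the least reduced for Slc7a11 and 5 of the Leydig cell markers, but not for Hsd3b2 or Lhcgr. It is also the least reduced for Hp, Hpx, Sat1, Cp, Blvra and Steap2, but not for Slc3a2 or Slc39a8. Of the normal rats, rat 3 is the highest for Slc7a11 and Hsd17b3 but the lowest for Star and Cyp11a1.

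The wider pathways were read from 3 lists with 93 symbols in all, of which 92 were in the table and 73 passed the filter on low values, on 74 rows. Of these rows 2 passed the criterion, both lower in the diabetic rats, or 2.70% beside 1.24% of all genes tested. None had an adjusted p below 0.05 in limma. At an unadjusted p below 0.05, 9 rows were lower (12.2%, beside 4.99% of all genes) and 0 were higher (2.47% of all genes). Groups lay apart with the diabetic rats lower in 11 rows and higher in 2, beside 8.42% and 4.56% of all genes. The median log2 fold change of the 74 rows was -0.03, and 70 rows were below 0.5 in size.

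Both genes past the criterion encode plasma proteins that bind hemoglobin or heme, and the list of other iron genes held them. Hp, which encodes haptoglobin, the carrier of free hemoglobin, was at 13.6, 6.73 and 16.6 FPKM in the diabetic and 22.2, 40.7 and 27.6 FPKM in the normal rats. The groups lay apart, with diabetic rat 2 the lowest. Hp had a log2 fold change of -1.34 (SE 0.35, adjusted p = 0.451, limma), and -0.95 without diabetic rat 2, which is short of the criterion.

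Hpx, which encodes hemopexin, the carrier of free heme, was at 0.691, 0.210 and 0.822 FPKM in the diabetic and 2.66, 3.11 and 2.17 FPKM in the normal rats. Again no diabetic rat reached the lowest normal rat. For Hpx the log2 fold change was -2.16 (SE 0.42, adjusted p = 0.279, limma), and its normal mean was 4.61 times its diabetic mean. Leaving out single rats gave -2.46 to -1.67.

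Of the 28 other iron rows tested, 4 were lower at an unadjusted p below 0.05 (14.3%, beside 4.99% of all genes). At that limit 0 were higher (2.47% of all genes), and the median log2 fold change of the 28 rows was -0.02. Cp, which encodes ceruloplasmin, the copper ferroxidase that loads iron onto transferrin, was at 4.13, 4.20 and 4.91 FPKM in the diabetic and 7.25, 6.87 and 6.67 FPKM in the normal rats. The groups were well apart and each was narrow. Cp had a log2 fold change of -0.64 (SE 0.11, adjusted p = 0.190, limma), the lowest adjusted p of the 3 lists, but under the fold limit.

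Slc39a8, a zinc transporter that also takes up iron, was at 4.81, 4.27 and 4.46 FPKM in the diabetic and 6.52, 6.14 and 5.39 FPKM in the normal rats (log2 fold change -0.40, adjusted p = 0.485, limma). Steap2, a metalloreductase, was at 1.42, 1.66 and 1.82 against 1.90, 2.81 and 2.17 FPKM (log2 fold change -0.45, adjusted p = 0.671, limma). Neither gene's groups overlapped, and neither passed the criterion. Ireb2, the iron-sensing protein that binds ferritin and transferrin receptor mRNAs, was at 17.1, 16.6 and 16.3 FPKM in the diabetic and 16.3, 15.9 and 14.4 FPKM in the normal rats (log2 fold change 0.10, adjusted p = 0.842, limma), groups that barely missed each other.

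Of 22 heme synthesis, transport and breakdown genes tested, 0 passed the criterion, and the median log2 fold change was -0.05. At an unadjusted p below 0.05, 2 were lower (9.09%, beside 4.99% of all genes). Blvra, biliverdin reductase, which acts on the product of heme oxygenase, was at 2.17, 1.91 and 2.20 FPKM in the diabetic and 3.08, 2.76 and 2.98 FPKM in the normal rats. Its groups lay apart, with a log2 fold change of -0.47 (adjusted p = 0.487, limma).

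Of 24 other ferroptosis genes tested, 0 passed the criterion and 3 were lower at an unadjusted p below 0.05 (12.5%, beside 4.99% of all genes). Sat1, which acetylates polyamines for export, was at 3.47, 2.67 and 4.74 FPKM in the diabetic and 6.10, 6.98 and 4.86 FPKM in the normal rats. Diabetic rat 3 and normal rat 3 nearly met. For Sat1 the log2 fold change was -0.73 (adjusted p = 0.539, limma). Fdft1, squalene synthase, was at 94.5, 95.4 and 89.2 FPKM in the diabetic and 86.1, 88.1 and 84.4 FPKM in the normal rats, with a log2 fold change of 0.11 (adjusted p = 0.729, limma).

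**Figure D5:**
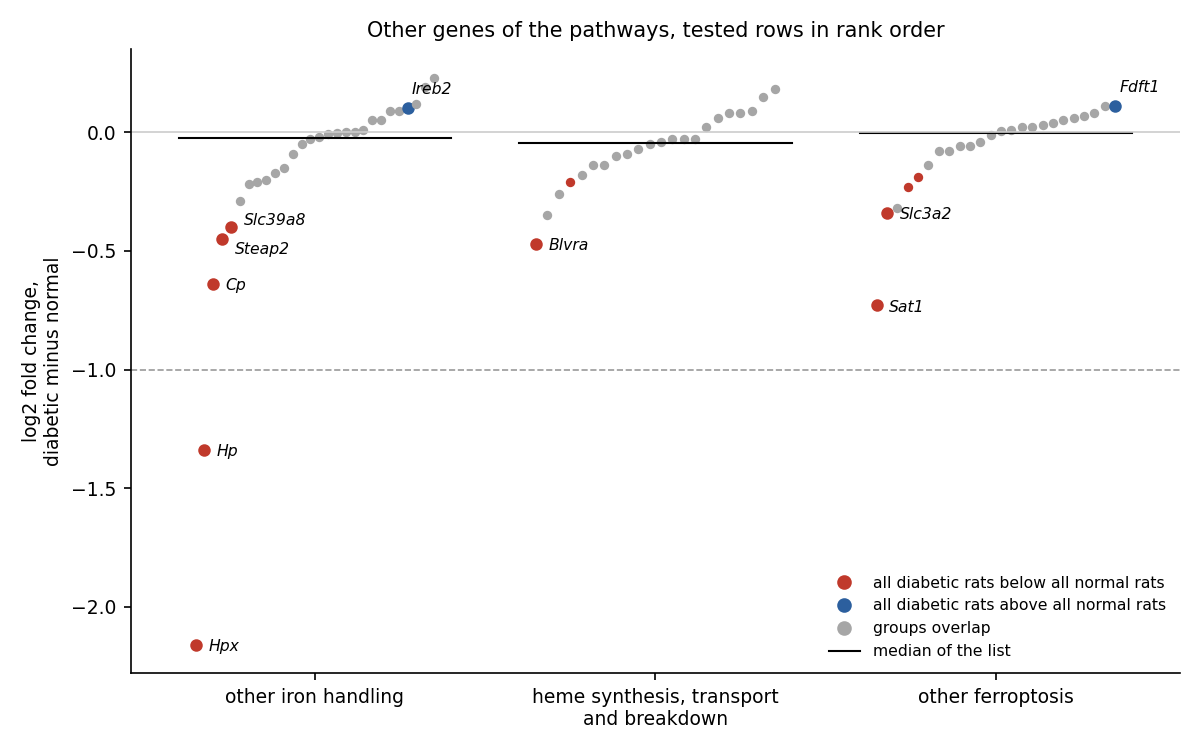
Log2 fold change, diabetic minus normal, of each tested row of the 3 pathway lists in rank order, with lines at the list medians of -0.02, -0.05 and -0.0044. Hp and Hpx are the points below the dashed line of the criterion, and red marks rows whose diabetic rats were all below all normal rats.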

How the data were processed

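The authors checked read quality, compared reads with ribosomal sequences by BWA, aligned them with STAR to a rat reference, used StringTie, and deposited 1 FPKM value per gene and sample. Versions, genome build and annotation are not given in the sources used here. FPKM are not counts, so log2(FPKM + 0.1) was fitted with limma 3.58.1 (lmFit, eBayes with trend) in R 4.3.3 on the 20338 genes whose mean over all 6 samples reached 0.5 FPKM, with the group as the only term and Benjamini-Hochberg adjustment over all of them. Fold changes on this scale understate those of low genes. Exact two-sided permutation tests over the rats used scipy 1.17.1. Groups came from the labels. The members, lists and tests were chosen with earlier results of these data known, so no list is independent evidence. Named were all members, listed genes past the criterion, and up to 5 per direction of those whose groups lay apart and whose mean reached 1 FPKM. Of marker genes, those past the criterion were named. Slc3a2, Lhcgr, Cd68, Csf1r, C1qa, Kit, Uchl1, Flt1 and the ferritin copies fall outside this rule, as do the genes given by level alone. Pcbp1 and Hsd3b1 were not matched in the table, and Cars1 and Hjv were matched by older symbols. The fit was tested on simulated data. A total of 16 alternatives were tried per count.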

Additional observations from a re-analysis of the deposited data

How the results depend on the processing

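Slc7a11 passed the criterion under all 16 alternatives, with log2 fold changes of -1.80 to -1.02 and adjusted p-values of 0.0949 to 0.72 in limma. No alternative gave any member an adjusted p below 0.05, and 1 member passed the criterion in each. Leaving out single rats gave 1 to 2 other pathway genes past the criterion, with 1 when diabetic rat 2 was left out, since Hp then stood at -0.95, and 2 under every other alternative. Signs turned only for members whose log2 fold change was within 0.09 of 0. With single rats left out, the log2 fold change was -0.10 to 0.04 for Slc11a2, -0.17 to 0.01 for Fth1, -0.05 to 0.17 for Ftl1, -0.02 to 0.09 for Hmox1 and -0.09 to 0.09 for Acsl4. Acsl4 was at 0.0042 under median-ratio scaling, and Ftl1 at -0.04 with its light chain rows summed, an alternative chosen after seeing the data, as were those for the named pathway genes. The cause was not tested.

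The groups share replicate numbers 1 to 3, which mark different rats. Deviations of same-numbered rats correlated at 0.106, 0.0153 and 0.0979, and not every rat correlated best with its own number. The replicate block left 1 member and 2 other pathway genes past the criterion, 0 members with an adjusted p below 0.05, and Slc7a11 at an adjusted p of 0.404. With 3 rats a group and no read counts, absolute depth is unknown, and biological and technical spread between rats cannot be told apart.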

Other observations

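Some genes of these pathways that passed no test or were not tested had levels worth recording, and were picked after their levels were seen. Ftmt, which encodes mitochondrial ferritin, was at 27.0 to 34.0 FPKM over the 6 rats, above the row of Ftl1 in every rat but below the summed ferritin light chain rows, at 80.7 to 104.9 FPKM. Alas2, the heme synthesis enzyme best known from erythroid cells, was at 8.20 to 9.53 FPKM in every library, while the erythroid genes Slc4a1 and Ahsp reached 0.0395 and 0.369 FPKM at most. The hemoglobin gene Hba-a2 was present, at 17.9 to 45.6 FPKM on its first row and 7.65 to 18.8 FPKM on its second. Gpx4, the lipid peroxidase that opposes ferroptosis, was at 422.4 to 517.9 FPKM, and Pebp1 at 1281 to 1403 FPKM. Ncoa4, the receptor that delivers ferritin to lysosomes, was at 132.9 to 145.0 FPKM.

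At the other end, Hamp, which encodes the iron hormone hepcidin, reached 0.519 FPKM at most and was listed at 0 in 1 library. Tfr2, the iron-sensing second transferrin receptor of liver, was at 0.0424 to 0.146 FPKM. Chac1 and Ptgs2, both often raised in cells undergoing ferroptosis, reached 0.211 and 0.499 FPKM at most. Hamp, Tfr2, Chac1, Ptgs2, Slc4a1 and Ahsp had means below 0.5 FPKM and were not tested.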
